A study of Mus musculus with 10 samples.

Results

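The genes described here are 32 genes of cholesterol handling, listed by symbol. They are 19 enzymes that make sterols, 4 genes that control the pathway or move sterols between membranes, and 4 genes of fatty acid synthesis. A further 4 are grouped as efflux members: the transporters Abca1 and Abcg1, and Nr1h3 and Mylip, which are not transporters. Nr1h3 is a liver X receptor gene, and Nr1h2, the second such gene, completes the list. All 32 were among the 55359 genes in the files, and all 32 were among the 14374 genes with enough counts to test. They were followed in macrophages sorted by the surface protein F4/80 from Braf-mutant melanomas of male mice. The tumours had rebounded under daily BRAF and MEK inhibitor treatment, which both groups received. The 5 control samples were Ccr2RFP/+, with an RFP allele in place of 1 of the pair of Ccr2 alleles, although their titles read wild type, and the 5 Ccr2 knockout samples were Ccr2RFP/RFP. A control library therefore also carried the RFP allele, and neither age nor tumour line was given in the sources used here. The labels do not say whether each library came from its own animal, so the p-values rest on the spread among these libraries, part of which may be technical. The question was how macrophages of resistant tumours differ in Ccr2 knockout mice. Ccr2 is the chemokine receptor that brings inflammatory monocytes from bone marrow into tissue.

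Cells balance cholesterol with opposed programmes. When sterol in the endoplasmic reticulum is low, Scap carries the SREBP proteins, encoded by Srebf1 and Srebf2, to the Golgi, where they are cut into active transcription factors, and Insig proteins hold the complex back when sterol is plentiful. SREBP2 mainly drives the sterol enzymes and SREBP1c the fatty acid enzymes. When oxysterols accumulate, the liver X receptors (LXR) raise the transporters Abca1 and Abcg1, which pass cholesterol to lipoproteins outside the cell, together with Mylip, an E3 ubiquitin ligase that degrades lipoprotein receptors, and Srebf1. Macrophages take up cholesterol from dead cells and lipoproteins and cannot break its rings down, so they depend on this export.

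No gene among the 32 passed the threshold of 0.05 on the adjusted p in either direction (edgeR quasi-likelihood test, Benjamini-Hochberg adjustment over all genes tested). Over all genes tested, 1.41% were called, 0.87% higher and 0.543% lower in the knockout, and 0.194% were called with 2 pairs of closely alike control libraries summed. At an unadjusted p below 0.05 stood 4 members, Lss and Dhcr7 higher and Abcg1 and Nr1h3 lower, and 15.3% of all genes tested did. Of the 32 log2 fold changes, 26 were positive and 6 negative, with a median of 0.13, against 49.5% positive and a median of -0.00335 over all genes tested. Without knockout library 3, 19 were positive and 13 negative with a median of 0.06, under limma-voom 22 were positive with a median of 0.08, and without knockout libraries 4 and 5 the median was 0.23. Lss and Dhcr7 did not overlap between groups, with every knockout library above every control library. Among all genes tested 2.69% did so in that direction, and 2.02% in the other, in which no member did. With the adjusted p threshold at 0.1 the member called was Dhcr7, where 3.09% of genes were. DESeq2 called Dhcr7 and Lss (adjusted p = 0.0168 and 0.023) where it called 4.55% of the 17558 genes it gave an adjusted p, and limma-voom with quality weights called Dhcr7 (adjusted p = 0.0398) where it called 3.1% of genes.

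Ccr2 was read first as a check of the labels. It stood at 119 ± 45.9 CPM (gene counts scaled to a common library total, with TMM factors) in control and 4.72 ± 1.41 CPM in knockout libraries (SD, n = 5 each), with no overlap (edgeR adjusted p = 0.000139, exact two-sided permutation p = 0.00794, the smallest this design allows). Libraries held 34639808 to 43360206 counts in genes. Control libraries 1 and 2, and control libraries 3 and 4, resembled each other more than any other pair of libraries within a group, with a median chi-square per gene of 2.79 and 2.73 against 7.11 for the next closest pair. Sampling noise alone gives 0.455. Separate preparations from the same source would exceed that noise too, so these values do not show whether the close pairs are independent samples. They were counted separately, as labelled. Of 7 macrophage markers Cd68 was called higher, and their summed level ran from 17527 to 18592 CPM in control and from 16743 to 22740 CPM in knockout libraries. Of 6 classical monocyte markers 3 were called lower (Ly6c2, Plac8 and Chil3), Ly6c2 for example at means of 85.2 and 5.43 CPM. The summed level of that list overlapped, 1174 to 2982 against 857 to 2208 CPM, its largest term being F13a1 at means of 981 and 1451 CPM.

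Markers of other cells were also summed. Dendritic cell markers, 1 of 7 called lower (Dpp4), summed to 11.3 to 28.7 CPM in control and 4.48 to 10.6 CPM in knockout libraries. Of 5 T and NK cell markers tested Cd4 was called higher, at means of 61.6 and 135 CPM, and the other 4 (Cd3e, Cd3d, Cd8a and Trac) had negative log2 fold changes of -1.24 to -0.87 that were not called. The list summed to 64.0 to 119 and 87.3 to 186 CPM, of which Cd4 was the largest term. Neutrophil markers, 0 of 6 called, summed to 159 to 483 and 113 to 209 CPM, and B cell markers, 0 of 2 called, to 28.2 to 70.4 and 14.6 to 41.7 CPM. Fibroblast markers, 0 of 6 called, summed to 630 to 2130 CPM in control and 251 to 3383 CPM in knockout libraries, highest in knockout library 3. Endothelial markers, 0 of 3 called, summed to 31.1 to 83.3 and 18.5 to 31.0 CPM. Of 3 melanoma markers tested Trpm1 was called higher, at means of 0.326 and 1.27 CPM, while Pmel and Sox10 had log2 fold changes of -0.21 and -0.14. The list summed to 4.83 to 43.1 and 15.9 to 36.6 CPM, mostly Sox10 at means of 27.4 and 24.9 CPM, with Mlana and Tyr at 0 in every knockout library. Keratinocyte and sebocyte markers, 0 of 2 called, summed to 0.343 to 8.55 and 0.0241 to 1.32 CPM. Adipocytes make much fat, but their 5 markers were too low to test, reached at most 0.462 CPM in sum, and Lep was at 0 in every library. The part of the cell types whose markers moved in the results below was not tested, and in bulk RNA fewer cells of a type and less RNA per cell cannot be told apart.

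The start of a gene is where SREBP, its partner factors and LXR would be looked for, so the promoter windows that RefSeq gives for the members on GRCm38.p6 (250 bases before to 50 after a start) were searched on both strands. Windows were given for 25 of the 32 members, 32 windows in all, and not for Fdps, Fdft1, Sqle, Stard4, Abcg1, Scd1 and Scd2. The sterol regulatory element TCACNCCAC was found in 1 of 32 member windows (3.13%), that of Hmgcs1, and in 1.24% of all 32851 windows. The E-box CACGTG, which SREBP also binds, was in 7 member windows (21.9%) against 7.15% of all. The overlapping windows of Scap hold the same E-box. Counted by gene, it was in 6 of 25 members against 2187 of 27025 genes. The CCAAT box CCAAT, bound by the SREBP partner NF-Y, was in 21 member windows (65.6%) against 37.4% of all, and among the 19 windows of the enzymes in 15 (78.9%). The GC box GGGCGG, bound by the partner Sp1, was in 24 member windows (75.0%) against 35.7% of all, and in 16 of the 19 enzyme windows (84.2%). A pair of AGGTCA repeats with a gap of 4 bases and at most 1 mismatch in each, the kind of site LXR binds, was in 0 of 32 member windows and 1.75% of all. That 0 depends on the mismatches allowed: with at most 2 in each repeat, a setting added after the data were seen, the pair was in 19 member windows (59.4%) against 54.2% of all, Abca1 among them, 67 to 52 bases before its start on the other strand. In the 250 bases before the start alone, the CCAAT box stood in 65.6% of member windows against 33.8% of all. There the GC box stood in 71.9% against 32.7% and the E-box in 18.8% against 6.02%. A match in such a window is a description, and no match says only that the letters are not there.

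The stretch before the first exon is printed for 4 members: Hmgcs1 as the holder of the sterol regulatory element, Lss and Dhcr7 as the enzymes whose groups did not overlap, and Abca1 as the efflux transporter with a window. Each is read 5′ to 3′ on the strand of the gene. Capitals mark the sterol regulatory element, E-box, CCAAT box and GC box on either strand (the CCAAT box reads ATTGG and the GC box CCGCCC on the other strand). The AGGTCA pair with at most 2 mismatches in each repeat is not marked, in Abca1 and Hmgcs1 among others.
Hmgcs1, chr13:119690101-119690350, plus strand: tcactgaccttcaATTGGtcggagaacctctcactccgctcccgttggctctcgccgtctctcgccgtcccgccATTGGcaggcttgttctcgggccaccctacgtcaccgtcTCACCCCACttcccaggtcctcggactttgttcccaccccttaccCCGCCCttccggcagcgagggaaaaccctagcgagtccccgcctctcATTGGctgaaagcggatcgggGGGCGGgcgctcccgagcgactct
Lss, chr10:76531355-76531587, plus strand: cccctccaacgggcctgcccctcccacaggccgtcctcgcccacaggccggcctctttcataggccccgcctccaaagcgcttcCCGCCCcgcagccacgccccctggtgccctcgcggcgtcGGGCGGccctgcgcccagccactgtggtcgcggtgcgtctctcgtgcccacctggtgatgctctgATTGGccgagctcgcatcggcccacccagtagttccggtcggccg
Dhcr7, chr7:143822917-143823144, plus strand: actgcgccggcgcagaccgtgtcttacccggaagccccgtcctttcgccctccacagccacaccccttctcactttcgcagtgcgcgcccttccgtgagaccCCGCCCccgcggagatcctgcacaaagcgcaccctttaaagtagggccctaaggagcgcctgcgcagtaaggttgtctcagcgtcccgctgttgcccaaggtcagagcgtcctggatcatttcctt
Abca1, chr4:53159896-53160145, minus strand: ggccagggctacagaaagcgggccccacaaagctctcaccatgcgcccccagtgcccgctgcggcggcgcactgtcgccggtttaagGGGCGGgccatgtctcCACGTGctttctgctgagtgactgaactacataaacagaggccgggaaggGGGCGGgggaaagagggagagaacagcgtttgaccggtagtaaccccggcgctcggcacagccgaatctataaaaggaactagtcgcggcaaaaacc
In Hmgcs1 the element reads TCACCCCAC and lies 137 to 129 bases before the start, with a pair of CCAAT boxes before it and a CCAAT box and a pair of GC boxes after it. The Lss window printed holds a CCAAT box and a pair of GC boxes, and that of Dhcr7, the first of its 3 windows, holds 1 GC box. Window 2 of Dhcr7 holds an E-box and window 3 holds CCAAT boxes and GC boxes, and neither is printed. Abca1 has an E-box 147 to 142 bases before its start and a GC box to each side of it. No marked motif overlaps another in these sequences.

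The early, mevalonate part of the pathway turns acetyl-CoA into isoprenoid units and then farnesyl pyrophosphate. Its 7 enzymes had 6 positive log2 fold changes and 1 negative, a median of 0.15, and none passed the test. Without knockout library 1 or 3 they were 4 positive and 3 negative, with medians of 0.10 and 0.09, without knockout library 2, 4 or 5 the medians were 0.23 to 0.24, and under limma-voom 3 were positive with a median of -0.02. Mvk, which phosphorylates mevalonate, stood at 16, 17.2, 19.7, 21.1 and 21.6 CPM in control libraries 1 to 5 and 16.9, 18.1, 30.4, 24.5 and 24.2 CPM in knockout libraries 1 to 5. Knockout libraries 3, 4 and 5 were above every control library, and knockout libraries 1 and 2 were within the control range. Its log2 fold change was 0.25 (standard error 0.17, 95% interval -0.11 to 0.62, edgeR adjusted p = 0.484), and 0.13 without knockout library 3. Hmgcs1, the synthase that makes HMG-CoA and the member with the sterol regulatory element printed above, stood at 34.5, 36.5, 29.8, 25.8 and 28.6 CPM in control libraries 1 to 5 and 55.8, 31.1, 35.1, 25.6 and 29.8 CPM in knockout libraries 1 to 5. Knockout library 1 was above all the others, and the remaining knockout libraries were in or just under the control range. Its log2 fold change was 0.19 (standard error 0.20, 95% interval -0.24 to 0.63, edgeR adjusted p = 0.671), and it was -0.03 without knockout library 1 and 0.31 without knockout library 4.

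Fdps, which makes farnesyl pyrophosphate, was counted at 1.49, 2.17, 1.57, 1.34 and 1.19 CPM in control libraries 1 to 5 and 1.84, 1.11, 3.35, 1.71 and 1.93 CPM in knockout libraries 1 to 5. Knockout library 3 was highest and knockout library 2 lowest, so the groups overlapped at both ends. This gave a log2 fold change of 0.36 (standard error 0.30, 95% interval -0.31 to 1.02, edgeR adjusted p = 0.6), and 0.09 without knockout library 3. That level is uncertain, because 91.4% of the transcript is shared, at 95% identity or more over at least 100 bases, with 6 other genes, and reads that fit several places were listed as 0 in these files. Parts of the transcript were shared in the same way for Acat2 (65.6%, with Acat3), Fdft1 (33.8%), Idi1 (22.6%), Scd2 (11.4%, with Scd1) and Insig1 (7.01%), whose levels are uncertain to that extent. The other mevalonate enzymes are Acat2, which joins acetyl-CoA units, Pmvk and Mvd, which carry mevalonate on to isopentenyl pyrophosphate, and Idi1, its isomerase. Their log2 fold changes were 0.07 (edgeR adjusted p = 0.887), -0.20 (edgeR adjusted p = 0.779), 0.02 (edgeR adjusted p = 0.976) and 0.15 (edgeR adjusted p = 0.868). Pmvk was the mevalonate enzyme with a lower knockout mean, and its spread was wide, 48.3 ± 18.4 CPM in control and 42.1 ± 13.5 CPM in knockout (SD, n = 5), with a log2 fold change of -0.33 without control library 4 and -0.03 without control library 2.

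The enzymes that make squalene and close it into rings had a median of 0.47 over 3 genes, all of them positive and none called. Without knockout library 3 the median was 0.08 with 1 negative, and it was 0.30 with the replicate number as a block and 0.15 under limma-voom. Lss (ENSMUSG00000033105.13), the cyclase that folds squalene epoxide into lanosterol, stood at 9.87, 8.72, 7.12, 10.2 and 8.40 CPM in control libraries 1 to 5 and 10.9, 12.2, 18.6, 12 and 13.7 CPM in knockout libraries 1 to 5. The lowest knockout library was above the highest control library, and knockout library 3 was highest. Its means were 8.86 ± 1.23 CPM in control and 13.5 ± 3.03 CPM in knockout (SD, n = 5). The knockout differed by a log2 fold change of 0.60 (standard error 0.17, 95% interval 0.24 to 0.97, edgeR adjusted p = 0.111). Leaving out each library in turn gave 0.46 to 0.67, with the adjusted p between 0.0981 and 0.235, and with the close control pairs summed the adjusted p was 0.328 (edgeR).

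Sqle, squalene epoxidase, the oxygen-dependent step before Lss, stood at 13.4, 13, 8.29, 9.13 and 7.89 CPM in control libraries 1 to 5 and 17, 10.4, 27.9, 5.97 and 10.4 CPM in knockout libraries 1 to 5. Its knockout values reached above and below the control range, with libraries 3 and 1 on top and library 4 at the bottom. In the fit the log2 fold change was 0.47 (standard error 0.36, 95% interval -0.33 to 1.27, edgeR adjusted p = 0.558), and 0.08 without knockout library 3. Fdft1, squalene synthase, which commits farnesyl units to sterols, stood at 19.6, 16.8, 14.6, 15.6 and 16.7 CPM in control libraries 1 to 5 and 16.8, 16, 30.8, 14.7 and 16.2 CPM in knockout libraries 1 to 5. Outside knockout library 3 the knockout values were in the control range. Its log2 fold change was 0.18 (standard error 0.20, 95% interval -0.26 to 0.62, edgeR adjusted p = 0.694), and -0.06 without knockout library 3.

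The late enzymes strip methyl groups from lanosterol and set the double bonds of cholesterol. Of these 9, 7 had positive and 2 negative log2 fold changes, with a median of 0.13, and none was called. Without knockout library 3, 5 were positive and 4 negative with a median of 0.02, and the median was 0.21 without knockout library 4 and 0.32 without knockout libraries 4 and 5. Dhcr7 (ENSMUSG00000058454.16), the reductase that completes cholesterol and takes its precursor away from the vitamin D branch, stood at 26, 24.7, 31, 31.9 and 32 CPM in control libraries 1 to 5 and 34.5, 37.1, 46.2, 45.3 and 39.6 CPM in knockout libraries 1 to 5. Every knockout library was above every control library, with knockout libraries 3 and 4 highest. Its means were 29.1 ± 3.49 CPM in control and 40.5 ± 5.07 CPM in knockout (SD, n = 5). The log2 fold change was 0.48 (standard error 0.12, 95% interval 0.22 to 0.73, edgeR adjusted p = 0.0785). It stayed between 0.42 and 0.53 with each library left out in turn, with the adjusted p from 0.0699 to 0.182, and the adjusted p was 0.325 with the close control pairs summed (edgeR).

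Sc5d, the desaturase before Dhcr7, stood at 12.4, 12.8, 12, 12.1 and 12.1 CPM in control libraries 1 to 5 and 16.6, 12.1, 17.6, 12.1 and 13.4 CPM in knockout libraries 1 to 5. Control values lay close together, knockout libraries 1, 3 and 5 were above them all, and the other knockout libraries were within them. This gave a log2 fold change of 0.22 (standard error 0.13, 95% interval -0.06 to 0.51, edgeR adjusted p = 0.426), and 0.14 without knockout library 3. Msmo1 takes part in the removal of methyl groups after the step of Cyp51. It stood at 28.7, 29.8, 23.8, 22.4 and 21.8 CPM in control libraries 1 to 5. In knockout libraries 1 to 5 it stood at 41, 26.3, 40.5, 21.6 and 28.3 CPM. Knockout libraries 1 and 3 were above the control range, and library 4 was just below it. The knockout differed by a log2 fold change of 0.32 (standard error 0.19, 95% interval -0.09 to 0.73, edgeR adjusted p = 0.438), and 0.21 without knockout library 1 or 3.

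The other late enzymes are Cyp51, the lanosterol demethylase, Tm7sf2 and Lbr, a pair of sterol reductases of which Lbr also anchors chromatin at the nuclear envelope, Nsdhl and Hsd17b7, which take part in the same removal of methyl groups, and Ebp, the isomerase. Their log2 fold changes were 0.07 (edgeR adjusted p = 0.909), 0.01 (edgeR adjusted p = 0.988), -0.10 (edgeR adjusted p = 0.833), 0.13 (edgeR adjusted p = 0.622), 0.51 (edgeR adjusted p = 0.441) and -0.02 (edgeR adjusted p = 0.922). Hsd17b7 is singled out after its values were seen, because it was near Dhcr7 in size with a wider spread, 6.16 ± 1.90 CPM in control and 8.80 ± 3.68 CPM in knockout (SD, n = 5), where knockout libraries 1 and 3 were above the control range and the others within it, and its log2 fold change was 0.28 without knockout library 1. Lbr ran from -0.23 without knockout library 1 to -0.01 without knockout library 4, and Nsdhl was 0.02 without knockout library 3. Ebp had the smallest standard error of the late enzymes, with a 95% interval of -0.22 to 0.17, so a change of the size estimated for Lss lies outside its interval.

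**Figure D1:**
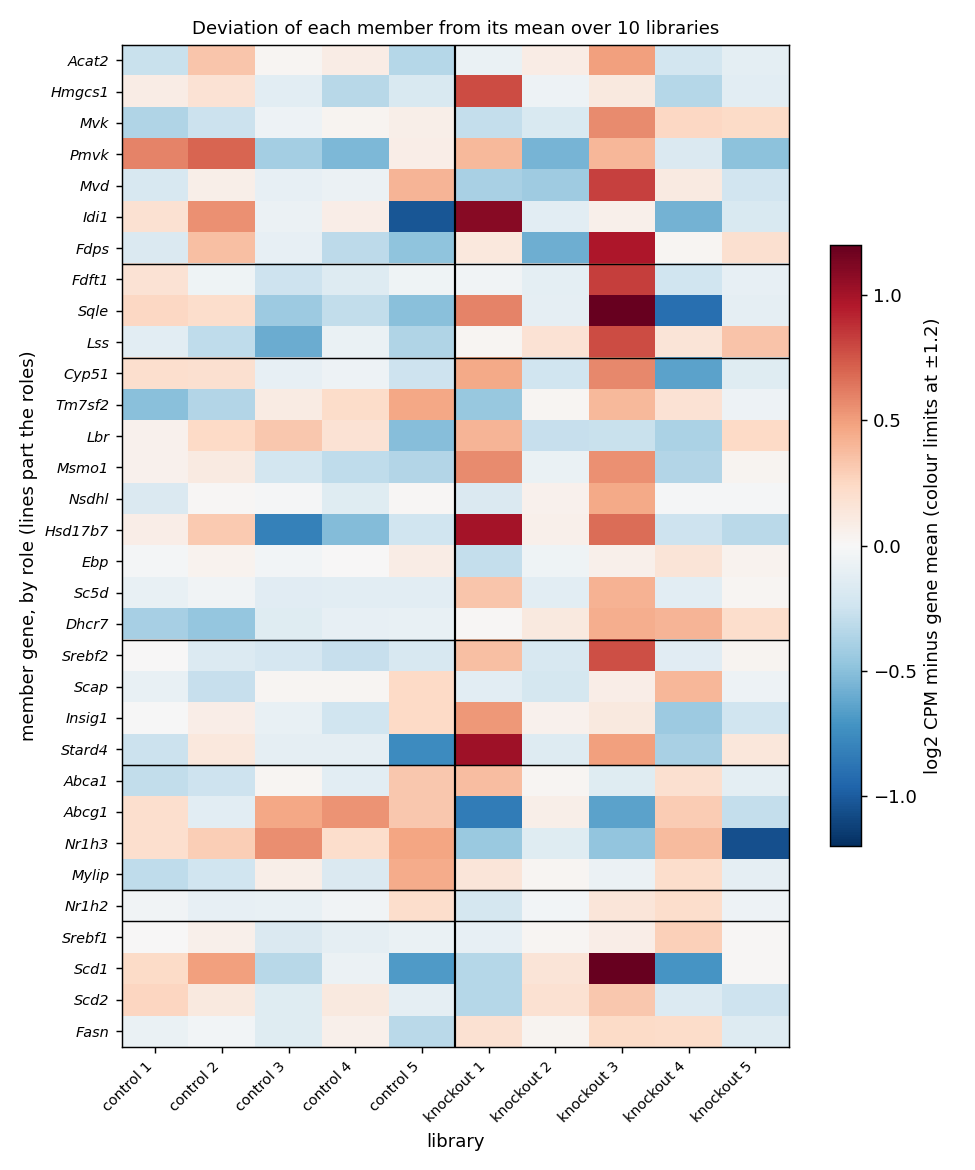
Deviation of log2 CPM from the gene's mean over the 10 libraries, for each of the 32 members (rows, parted by role) in each library (columns, control left, Ccr2 knockout right), with red above and blue below the mean and colour limits at ±1.2. Knockout library 3 was above the mean for 18 of the 19 enzymes.

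Over the 19 enzymes together, 16 log2 fold changes were positive and the median was 0.18. The libraries of each group were unlike each other, as the heat map of deviations shows. Knockout library 3 had the highest value of all 10 libraries for 11 of the 19 enzymes and was above the mean for 18, and knockout library 1 had the highest value for 5 and was above the mean for 12. Knockout libraries 2, 4 and 5 were above the mean for 6, 7 and 8 enzymes, and control libraries 1 to 5 for 9, 13, 3, 6 and 6. Without knockout library 3, 11 of the 19 were positive with a median of 0.08, and without knockout libraries 4 and 5, 16 were positive with a median of 0.34. Under limma-voom with quality weights 13 were positive with a median of 0.09. Knockout library 3 also had the highest fibroblast marker sum, 3383 CPM, and its part in these values was not tested. Mean log2 CPM of the 19 enzymes was 3.96 and 4.09 in control libraries 1 and 2, and 3.81 to 3.86 in the other controls. It was 4.21 and 4.50 in knockout libraries 1 and 3, and 3.84 to 3.96 in the other knockouts. The same libraries had the highest shares of reads in no gene, 4.81% to 5.68% against 3.63% to 4.61%. Some enzymes, Dhcr7 and Mvk among them, were instead lowest in control libraries 1 and 2 within that group. This split crossed genotype, and its part was not tested.

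**Figure D2:**
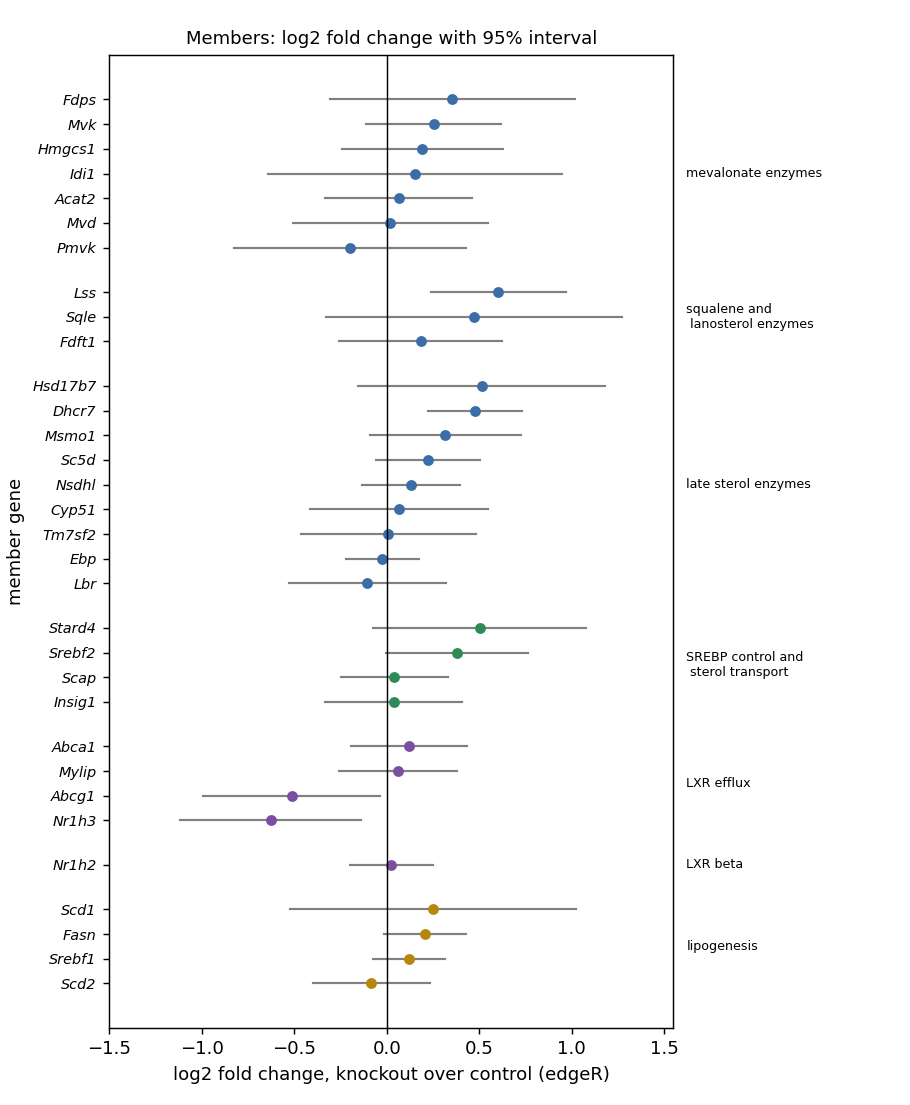
Log2 fold change of knockout over control (horizontal axis) for each of the 32 members (vertical axis, grouped by role and sorted), as points with 95% intervals as lines. The intervals of Lss and Dhcr7 lie above 0 and those of Abcg1 and Nr1h3 below 0 before adjustment over all genes, and the other intervals include 0.

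Among the genes that set the pathway or move sterols, all 4 log2 fold changes were positive, with a median of 0.21, and none was called. The median was 0.11 without knockout library 3 and 0.40, with 3 positive, without knockout libraries 4 and 5. Srebf2, which encodes SREBP2, stood at 89.9, 80.2, 78.3, 73.9 and 78.4 CPM in control libraries 1 to 5 and 115, 78.5, 154, 81.6 and 91.6 CPM in knockout libraries 1 to 5. Knockout libraries 3, 1 and 5 were above the control range and libraries 2 and 4 within it. In the fit the log2 fold change was 0.38 (standard error 0.17, 95% interval -0.01 to 0.76, edgeR adjusted p = 0.332), and 0.20 without knockout library 3. Stard4, a carrier of cholesterol between membranes and itself an SREBP2 target, stood at 11.6, 15.1, 12.9, 12.8 and 8.21 CPM in control libraries 1 to 5 and 28.2, 12.4, 19.5, 10.6 and 15.2 CPM in knockout libraries 1 to 5. Knockout libraries 1 and 3 were clearly above the control range, library 5 was just above it, and libraries 2 and 4 were within it. The log2 fold change was 0.50 (standard error 0.26, 95% interval -0.07 to 1.08, edgeR adjusted p = 0.386), and 0.25 without knockout library 1.

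Scap, the sterol sensor that escorts SREBP, stood at 52, 45.7, 56.2, 56.2 and 65.4 CPM in control libraries 1 to 5 and 50.9, 47.9, 58.5, 73 and 53.2 CPM in knockout libraries 1 to 5. All but knockout library 4 were within the control range. Its log2 fold change was 0.04 (standard error 0.13, 95% interval -0.25 to 0.33, edgeR adjusted p = 0.906). Insig1, which holds Scap in the endoplasmic reticulum and is itself an SREBP target, had a log2 fold change of 0.04 (edgeR adjusted p = 0.937), with 43.1 ± 5.35 CPM in control and 44.2 ± 11.5 CPM in knockout (SD, n = 5). Among these 4 genes the intervals of Scap and Insig1 (-0.33 to 0.41) left out the size estimated for Stard4. The interval of Stard4 ran from -0.07 to 1.08.

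The 4 efflux members divided, with 2 positive and 2 negative log2 fold changes, a median of -0.23 (-0.14 without control library 5), and none called. Nr1h3 (ENSMUSG00000002108.11), which encodes LXR alpha, the LXR characteristic of macrophages and liver, stood at 22.9, 24.5, 29.3, 23.1 and 27.6 CPM in control libraries 1 to 5 and 14.6, 18, 14.3, 26 and 9.58 CPM in knockout libraries 1 to 5. Knockout libraries 1, 2, 3 and 5 were below every control library, and knockout library 4 was among the controls. Nr1h3 averaged 25.5 ± 2.86 CPM in control and 16.5 ± 6.09 CPM in knockout (SD, n = 5). This gave a log2 fold change of -0.63 (standard error 0.22, 95% interval -1.12 to -0.14, edgeR adjusted p = 0.204). With each library left out in turn it ran from -0.84 to -0.48, and the adjusted p from 0.0715 to 0.332, lowest without knockout library 4 (edgeR). Abcg1 (ENSMUSG00000024030.8), which passes cholesterol to HDL, stood at 238, 190.3, 287, 301 and 259.7 CPM in control libraries 1 to 5 and 116, 218, 133, 257 and 169.9 CPM in knockout libraries 1 to 5. Knockout libraries 1, 3 and 5 were below the control range and libraries 2 and 4 within it. Abcg1 averaged 255 ± 43.6 CPM in control and 179 ± 58.7 CPM in knockout (SD, n = 5). The knockout differed by a log2 fold change of -0.51 (standard error 0.22, 95% interval -0.99 to -0.04, edgeR adjusted p = 0.293).

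Abca1 (ENSMUSG00000015243.5), which loads cholesterol and phospholipid on to lipid-poor apolipoprotein, stood at 436, 452, 544, 492 and 669.8 CPM in control libraries 1 to 5 and 691, 544, 485, 612 and 493 CPM in knockout libraries 1 to 5. The groups overlapped nearly throughout, with knockout library 1 just above the highest control library. Abca1 averaged 519 ± 94 CPM in control and 565 ± 86.6 CPM in knockout (SD, n = 5). In the fit the log2 fold change was 0.12 (standard error 0.14, 95% interval -0.19 to 0.44, edgeR adjusted p = 0.716), 0.04 without knockout library 1 and 0.24 without control library 5. Mylip had a log2 fold change of 0.06 (edgeR adjusted p = 0.869), with every knockout library inside the control range. Nr1h2, which encodes LXR beta, the widely expressed form, stood at 93.3, 89.6, 90.3, 93.1 and 111 CPM in control libraries 1 to 5 and 83.1, 93.8, 106, 111 and 92 CPM in knockout libraries 1 to 5. Its groups overlapped, with a log2 fold change of 0.03 (standard error 0.10, 95% interval -0.20 to 0.25, edgeR adjusted p = 0.925).

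The ratio of Abca1 to Abcg1 within a library, in CPM, was 1.83, 2.38, 1.90, 1.63 and 2.58 in control libraries 1 to 5 and 5.96, 2.49, 3.65, 2.38 and 2.90 in knockout libraries 1 to 5. It averaged 2.06 ± 0.396 and 3.48 ± 1.48 (SD, n = 5). Knockout libraries 1, 3 and 5 were above every control, and the others overlapped them. This ratio was formed after the values of both genes were known and was given no test. The monocyte markers Ly6c2, Plac8 and Chil3 fell in the same comparison, and their part in the values of Nr1h3 and Abcg1 was not tested.

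**Figure D3:**
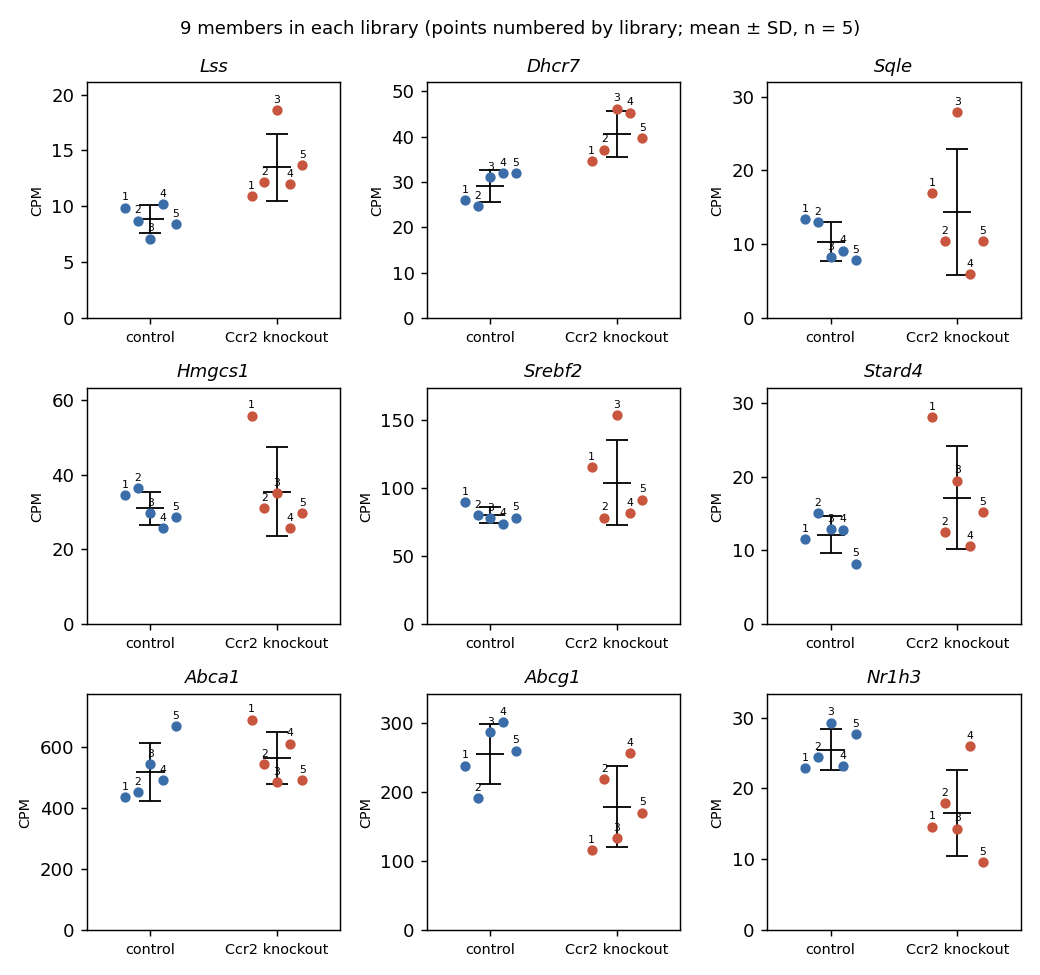
CPM (vertical axis, from 0) of 9 members in each library, control in blue and Ccr2 knockout in red, with points numbered by library and bars for mean ± SD (n = 5). Lss and Dhcr7 do not overlap between groups, knockout libraries 1 and 3 stand high for Sqle, Srebf2 and Stard4, and knockout library 4 stays among the controls for Nr1h3 and Abcg1.

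Each fatty acid gene overlapped between groups, and none was called, with 3 positive and 1 negative log2 fold change and a median of 0.17. Without knockout library 3 they were 2 positive and 2 negative with a median of -0.02, and under limma-voom the median was 0.09. Fasn, fatty acid synthase, stood at 48.9, 50.6, 46.8, 53.7 and 41.2 CPM in control libraries 1 to 5 and 58.5, 52.9, 60.4, 60.2 and 46.4 CPM in knockout libraries 1 to 5. Knockout libraries 1, 3 and 4 were above the control range and libraries 2 and 5 within it. The log2 fold change was 0.21 (standard error 0.10, 95% interval -0.01 to 0.43, edgeR adjusted p = 0.356). Srebf1, which encodes SREBP1 and is a target of LXR as well, stood at 94.4, 98.5, 83.5, 87.4 and 89.5 CPM in control libraries 1 to 5 and 88, 95.6, 99.6, 115 and 95.3 CPM in knockout libraries 1 to 5. Knockout libraries 4 and 3 were highest and the rest were in the control range. This gave a log2 fold change of 0.12 (standard error 0.09, 95% interval -0.07 to 0.32, edgeR adjusted p = 0.531), and 0.07 without knockout library 4.

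Scd1, a desaturase that makes monounsaturated fatty acids, stood at 19.5, 23.5, 13.2, 15.9 and 10.3 CPM in control libraries 1 to 5 and 13.1, 18.6, 39.2, 10.2 and 16.8 CPM in knockout libraries 1 to 5. Knockout library 3 was above all the others and knockout library 4 just below the control range. The knockout differed by a log2 fold change of 0.25 (standard error 0.35, 95% interval -0.52 to 1.02, edgeR adjusted p = 0.774), -0.17 without knockout library 3 and 0.42 without knockout library 4. Scd2, the related desaturase, had a log2 fold change of -0.08 (edgeR adjusted p = 0.82), with 107 ± 12.6 CPM in control and 102 ± 20.9 CPM in knockout (SD, n = 5).

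Levels of different genes were set side by side only per kilobase of exon, in control libraries. Abca1 was highest at 50.1 CPM per kilobase, followed by Abcg1 at 35, Ebp at 28.8, Nr1h2 at 28.5, Pmvk at 28.2 and Mylip at 24.1. The transcription factor genes followed in the order Srebf1 (16.1), Srebf2 (11.2) and Nr1h3 (10.1). The efflux transporters were thus above every sterol enzyme on this scale. Among the enzymes Lss (0.822), Idi1 (0.862) and Fdps (0.369, uncertain for the reason given) were lowest on this scale. Lbr (10.2), Mvd (8.99) and Mvk (7.15) stood after Ebp and Pmvk at the top. Lss was divided by 10787 bases of exon, although its longest coding transcript has 4667, so its low place depends on the length used. Scd2 stood at 19.7 and Scd1 at 3.37 CPM per kilobase.

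To set synthesis against efflux, the mean log2 CPM of the 19 enzymes (the synthesis score) and of the 4 efflux members (the efflux score) was taken in each library, as a description with no test. The synthesis score was 3.96, 4.09, 3.83, 3.86 and 3.81 in control libraries 1 to 5 and 4.21, 3.86, 4.50, 3.84 and 3.96 in knockout libraries 1 to 5. Knockout libraries 1 and 3 were above every control and the other 3 were among them, with means of 3.91 ± 0.11 and 4.07 ± 0.28 (SD, n = 5). The efflux score was 6.79, 6.77, 7.12, 6.96 and 7.24 in control libraries and 6.65, 6.84, 6.51, 7.12 and 6.45 in knockout libraries. Knockout libraries 1, 3 and 5 were below every control, with means of 6.98 ± 0.20 and 6.71 ± 0.27 (SD, n = 5). The 4 members of this score divided, with log2 fold changes of -0.63 for Nr1h3 and -0.51 for Abcg1 but 0.12 for Abca1 and 0.06 for Mylip. Synthesis less efflux averaged -3.07 ± 0.31 and -2.64 ± 0.49, a difference of 0.42. The SD is the spread of single libraries, and no error of the difference was estimated. Without knockout library 3 the difference was 0.27. The difference in the synthesis score, 0.16, was then 0.06, and 0.29 without knockout libraries 4 and 5. The lipogenesis score averaged 5.70 ± 0.20 and 5.80 ± 0.25, highest in knockout library 3 at 6.22.

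**Figure D4:**
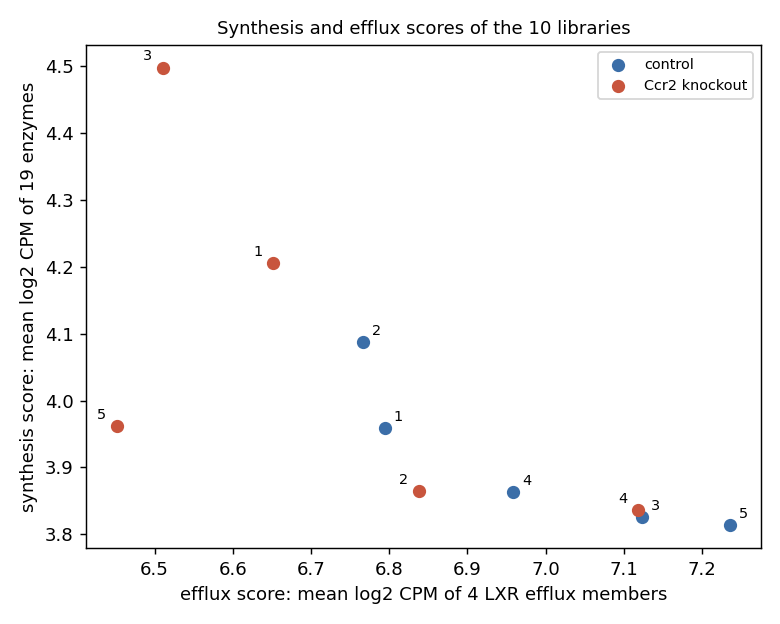
Synthesis score (vertical axis, mean log2 CPM of 19 enzymes) against efflux score (horizontal axis, mean log2 CPM of 4 members) in each of the 10 libraries, control in blue and Ccr2 knockout in red, numbered by library. Knockout libraries 1 and 3 combine the highest synthesis scores, 4.21 and 4.50, with efflux scores below every control. Knockout library 5 has the lowest efflux score, 6.45, with a synthesis score in the control range, 3.96. Knockout libraries 2 and 4 lie among the controls.

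Other genes of the pathway were read from the same fit, and no gene in these lists was called in either direction. Of 13 further sterol and fatty acid synthesis genes, 6 were positive and 7 negative, with a median of -0.02 that ran from -0.17 to 0.06 with each library left out in turn. Fads1, a desaturase of long fatty acids, stood at 148, 161, 179.8, 183 and 177 CPM in control libraries 1 to 5 and 177, 202, 220.2, 234 and 218 CPM in knockout libraries 1 to 5. All knockout libraries but library 1 were above the control range. Its log2 fold change was 0.31 (standard error 0.10, 95% interval 0.09 to 0.53, edgeR adjusted p = 0.159). Tmem97, a sterol-responsive membrane protein, had 18.9 ± 1.88 CPM in control and 22.7 ± 3.81 CPM in knockout (SD, n = 5) and a log2 fold change of 0.26 (edgeR adjusted p = 0.36). Me1, which supplies NADPH for fatty acid synthesis, had 3.11 ± 0.754 CPM in control and 2.10 ± 0.796 CPM in knockout and a log2 fold change of -0.56 (edgeR adjusted p = 0.382).

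Of 8 further genes that process SREBP or sense sterols, 7 were positive, with a median of 0.13. Erlin2, an endoplasmic reticulum protein that restrains SREBP with Insig and Scap, was the gene of this list whose groups did not overlap, 43.2, 50.3, 54.9, 52.5 and 51.4 CPM in control libraries 1 to 5 and 68.8, 56.3, 55.2, 61.6 and 58.6 CPM in knockout libraries 1 to 5. Knockout library 3 was just above the highest control library, so the gap was small. Its log2 fold change was 0.25 (standard error 0.09, 95% interval 0.05 to 0.45, edgeR adjusted p = 0.214). Insig2, the other Insig gene, had 24.8 ± 2.06 CPM in control and 30.4 ± 3.33 CPM in knockout (SD, n = 5). Its log2 fold change was 0.30 (edgeR adjusted p = 0.184). Erlin1 had 47.1 ± 4.65 CPM in control and 52.4 ± 5.57 CPM in knockout (SD, n = 5). Its log2 fold change was 0.16 (edgeR adjusted p = 0.471), and 0.09 without knockout library 1.

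Of 8 further LXR partners and targets, 4 were positive and 4 negative, with a median of 0.00435 that ran from -0.06 to 0.07 with each library left out in turn. Rxra, the partner with which LXR binds DNA, had 121 ± 25.4 CPM in control and 151 ± 19.1 CPM in knockout and a log2 fold change of 0.32 (edgeR adjusted p = 0.319). Smpdl3a, a phosphodiesterase that LXR raises, had 110.0 ± 29.8 CPM in control and 88.2 ± 7.22 CPM in knockout and a log2 fold change of -0.32 (edgeR adjusted p = 0.367), and -0.13 without control library 5. Lpcat3, a phospholipid remodelling enzyme and LXR target, had 45.2 ± 6.32 CPM in control and 53.5 ± 8.69 CPM in knockout and 0.24 (edgeR adjusted p = 0.401) (SD, n = 5 for each). Partners and targets of LXR thus had values on both sides of 0.

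Of 19 genes of sterol uptake, storage and oxysterol formation, 10 were positive and 9 negative, with a median of 0.10 (0.0047 without knockout library 1 and 0.06 without control library 4). Ch25h (ENSMUSG00000050370.6), which makes an oxysterol that blocks SREBP processing, stood at 75.3, 86.4, 51.7, 47.4 and 18.2 CPM in control libraries 1 to 5 and 237, 141, 166, 97.8 and 144 CPM in knockout libraries 1 to 5. Every knockout library was above every control library. Ch25h averaged 55.8 ± 26.5 CPM in control and 157 ± 50.9 CPM in knockout (SD, n = 5). In the fit the log2 fold change was 1.49 (standard error 0.37, 95% interval 0.68 to 2.30, edgeR adjusted p = 0.0822), and DESeq2 and limma-voom called it (adjusted p = 0.00178 and 0.0423), while with the close control pairs summed the adjusted p was 0.26 (edgeR). Lrp1, a receptor for lipoproteins and dying cells, stood at 1519, 1282, 1466, 1572 and 2209 CPM in control libraries 1 to 5 and 2345, 2171, 2406, 2755 and 2056 CPM in knockout libraries 1 to 5. Knockout libraries 1, 3 and 4 were above every control library, and libraries 2 and 5 were below control library 5. The log2 fold change was 0.54 (standard error 0.15, 95% interval 0.22 to 0.87, edgeR adjusted p = 0.106), and DESeq2 and limma-voom called it too (adjusted p = 0.0288 and 0.0384), while with the close control pairs summed the adjusted p was 0.461 (edgeR). Soat1, which esterifies cholesterol for storage in droplets, stood at 147, 149.5, 152, 145 and 176 CPM in control libraries 1 to 5 and 124, 137, 124, 135 and 129.7 CPM in knockout libraries 1 to 5. Every knockout library was below every control library. This gave a log2 fold change of -0.24 (standard error 0.08, 95% interval -0.42 to -0.07, edgeR adjusted p = 0.166), and neither DESeq2 nor limma-voom called it (adjusted p = 0.127 and 0.121).

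Dividing cells need membrane sterol, so 15 proliferation genes were read beside the enzymes. All 15 were positive, with a median of 0.50, and none was called. Without control library 5 the median was 0.32 with 14 positive and 1 negative, Mki67, named after its values were seen, at -0.21. Cdk1, the mitotic kinase, had 44.6 ± 13.8 CPM in control and 70.9 ± 13.4 CPM in knockout and a log2 fold change of 0.67 (edgeR adjusted p = 0.184). Mcm6 and Mcm2, parts of the replicative helicase, had log2 fold changes of 0.55 (edgeR adjusted p = 0.204) and 0.50 (edgeR adjusted p = 0.255). The mean log2 CPM of the 15 was 5.79, 5.94, 6.52, 6.25 and 4.89 in control libraries 1 to 5 and 6.68, 6.33, 6.06, 6.22 and 6.59 in knockout libraries 1 to 5, lowest in control library 5 and, among the knockouts, lowest in library 3. The part of proliferation in the enzyme values was not tested.

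**Figure D5:**
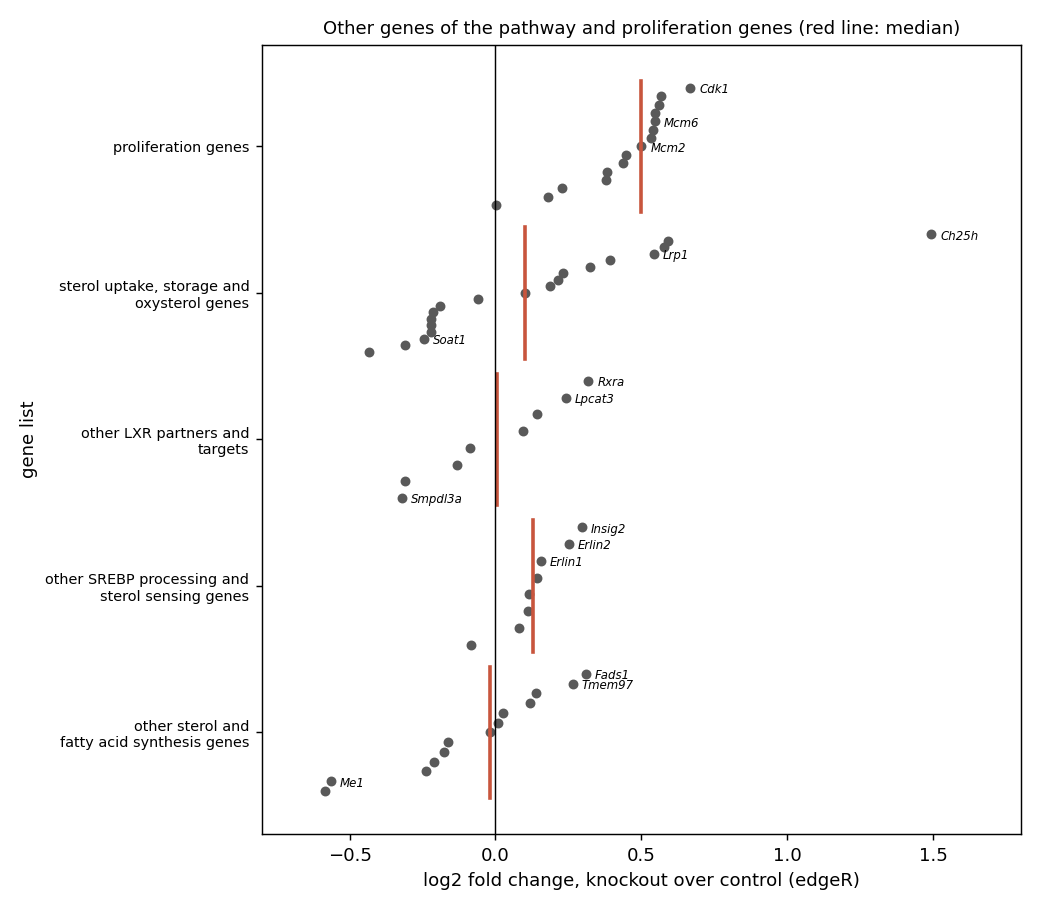
Log2 fold change of knockout over control (horizontal axis) for every tested gene of 4 pathway lists and of the proliferation list (vertical axis), 1 point a gene, with the list's median as a red line and the 3 genes of smallest p named. Ch25h stands apart at 1.49, and the medians of the 4 pathway lists lie between -0.02 and 0.13.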

How the data were processed

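Bulk RNA-seq of 10 libraries was analysed, 5 control and 5 Ccr2 knockout, grouped by the genotype label. Per the labels' protocols, F4/80+ cells were sorted by flow cytometry, polyadenylated RNA was enriched, and directional libraries were made. The submitters' processing notes name STAR and GRCm39. The version of STAR and the annotation were not given in the labels. The deposited values, made by the authors, are whole-number read counts per gene, unstranded and for each strand. The reverse-strand column was used, which held 96.2% to 96.5% of strand-assigned counts. Summary rows that name no gene stayed out of totals and tests, and reads listed there as ambiguous were 1.83% to 2.10% of the reads. Libraries held 34639808 to 43360206 counts, and CPM and fold changes carry counting error beside the spread between libraries. A further table with 10 columns of per-sample values was not used, because the columns could not be matched to samples.

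Of 55359 identifiers, 52083 matched a symbol. Genes passing filterByExpr (minimum count 10) entered the quasi-likelihood test of edgeR 4.0.16 (R 4.3.3) after TMM scaling, with Benjamini-Hochberg adjustment over all 14374 genes and a threshold of 0.05. The standard error is the size of the log2 fold change divided by the square root of F, and the 95% interval uses the t quantile of the test. Scores are means of log2 CPM with a prior count of 2. The test was run on simulated counts of independent libraries, with fold changes larger than those estimated for the members. This does not check it for closely alike control pairs or for changes as small as those of the members. Exon lengths come from GENCODE M21 and promoters from RefSeq, both on another build than the counts, so no coordinates of the counts are given. Shared transcript sequence was found with blastn 2.17.0.

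The members and lists were chosen with earlier results of these data known. Values in every library are given for up to 3 members of each role with the smallest unadjusted p, and for each other list up to 3 genes are named in the same way. Other sterol genes outside the lists were not analysed here, and 1 monocyte marker is not reported here. Title numbers did not pair libraries. Alternatives were other size factors, filters, strand handling, dispersions, tests (limma 3.58.1, DESeq2 1.42.0), thresholds, a replicate block, each library left out, close control pairs summed, and knockout libraries 4 and 5 left out. Figures were drawn with matplotlib 3.10.9.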

Additional observations from a re-analysis of the deposited data

Results flagged for a closer look

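In 4 of 72 groups of 5 values checked (each member and score within each genotype), 1 library lay far from the other 4 by Dixon's criterion, which chance meets in about 1 in 20 groups. Idi1 reached 6.39 CPM in knockout library 1, against 1.98 to 3.09 CPM in the other knockout libraries. Fdft1 reached 30.8 CPM in knockout library 3, against 14.7 to 16.8 CPM in the others. Scd1 reached 39.2 CPM in knockout library 3, against 10.2 to 18.6 CPM in the others. Nr1h2 stood at 111 CPM in control library 5, against 89.6 to 93.3 CPM in the other control libraries. The levels of Idi1 and Fdft1 are uncertain, since 22.6% and 33.8% of their transcripts are shared with near copies.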

How the results depend on the processing

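Fdps and Idi1 were the lowest members, near 2 and 3 CPM, with standard errors of 0.30 and 0.36. Sqle and Scd1 had more counts and standard errors of 0.36 and 0.35, so precision did not follow depth alone. Having 5 libraries a group limits all members. Of 203 genes called by edgeR, the count was 55 with the replicate block, 29 with the close control pairs summed, 50 without knockout libraries 4 and 5, 444 at an adjusted p threshold of 0.1, 799 with DESeq2 and 446 with limma-voom. It ran from 62 to 267 with each library left out in turn, and it was more than 1.5 times lower without control library 1, 2, 3 or 4 (77, 62, 101 and 77) or knockout library 4 or 5 (107 and 92). Of the 32 members, 0 were called by edgeR (4 at an unadjusted p below 0.05), 0 in every fit leaving out 1 library and 0 with the replicate block, 2 with DESeq2, 1 with limma-voom and 1 at a threshold of 0.1. The replicate block uses the number in the titles, and same-numbered libraries deviated together with r of 0.34, 0.08, -0.53, 0.18 and -0.22, so the numbers did not pair the libraries. Only for number 1 did both libraries correlate best with their own number.

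Over 21 alternatives, 627 of 672 log2 fold changes of members kept their direction and side of the threshold, 42 changed sign, in 14 members, and 3 passed the threshold (Dhcr7 at 0.48 and Lss at 0.61 with DESeq2, Dhcr7 at 0.48 with limma-voom). The causes were not tested. With limma-voom, sign changed for Acat2 (-0.022), Mvd (-0.051), Idi1 (-0.15), Cyp51 (-0.11), Ebp (0.017) and Insig1 (-0.048). With the close control pairs summed it changed for Mvd (-0.044), Tm7sf2 (-0.072), Mylip (-0.016) and Nr1h2 (-0.0081). Without knockout libraries 4 and 5 it changed for Scap (-0.059), Nr1h2 (-0.0067) and Scd2 (0.036). Mvd was -0.067 with unstranded counts and -0.048 with the replicate block, Tm7sf2 -0.00022 with a filter of 1 CPM, and Ebp 0.00054 with no composition factor. Leaving out each library in turn, the log2 fold change ran from -0.069 to 0.17 for Acat2, -0.028 to 0.31 for Hmgcs1, -0.26 to 0.14 for Mvd, -0.21 to 0.32 for Idi1, -0.063 to 0.27 for Fdft1, -0.093 to 0.21 for Cyp51, -0.099 to 0.15 for Tm7sf2, -0.056 to 0.041 for Ebp, -0.055 to 0.12 for Scap, -0.11 to 0.15 for Insig1, -0.0037 to 0.21 for Mylip, -0.015 to 0.098 for Nr1h2 and -0.17 to 0.42 for Scd1. The synthesis score difference, 0.16 in the main fit, ran from 0.06 (without knockout library 3) to 0.29 (without knockout libraries 4 and 5). The differences ran from -0.35 to -0.18 for efflux, -0.01 to 0.20 for lipogenesis and 0.27 to 0.59 for synthesis less efflux. Every shift was below the larger SD of the groups. Leaving out 1 or 2 of 5 libraries could hardly move a mean further than that, so this does not show that the differences are stable.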
